A study of Mus musculus with 10 samples.

Results

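The genes described here mark the endothelium of blood and lymphatic vessels in the fetal mouse lung, and they were followed in lungs in which Shh-Cre deleted Hdac3, a histone deacetylase gene. The set has 41 genes chosen by symbol: markers shared by endothelial cells, genes of capillaries, arteries and veins, genes of lymphatic vessels, and the angiopoietin ligands with their Tie receptors. Of these, 39 were measured among 17919 genes in all. Sele, the endothelial selectin E-selectin, had no value used here, and the probe sets for Ccl21a, a lymphatic chemokine, are shared with 7 other symbols, among them its near-identical copies. A gene was read from the probe set annotated to it alone, taking the one with the highest mean over all lungs. Only Angpt1 had a second such probe set, a dim one that was likewise not called.

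The study took 10 whole lungs from mouse embryos at E18.5, shortly before birth, and hybridised 1 Affymetrix array per lung. The 5 knockout (KO) lungs carried Shh-Cre and Hdac3 fl/fl. Shh-Cre is a recombinase driven from the Sonic hedgehog locus, which is active in lung epithelium and not known to be active in endothelium. The 5 control lungs carried Shh-Cre, and their label gives no Hdac3 alleles. Both groups were on a C57BL/6, 129X1 and 129S6 background and came from Hdac3 fl/fl mothers and Hdac3 fl/+ Shh-Cre fathers, so a control embryo with Cre from this cross would have 1 floxed and 1 wild-type allele, and its epithelium would lack 1 copy. The lungs are labelled as biological replicates, with no litter or sex. Values are log2 levels. They compare a gene between lungs, and 1 probe set's level cannot be set against another's.

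Endothelial cells line all vessels. They are held together by VE-cadherin and claudin-5, and ETS and SOXF transcription factors maintain their identity. In the lung they receive signals from the neighbouring epithelium, and capillary endothelium is known to split into general capillary cells, which express Aplnr and Gpihbp1, and aerocytes, which express Car4, Ednrb and Apln and form the thin gas-exchange surface. Lymphatic vessels are specified by Prox1 and drain fluid from the lung at birth.

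Stretches of sequence just upstream of 6 transcription starts are shown, as RefSeq gives them in GRCm38.p6. They are both annotated starts of Tbx1, the gene that was called, that of Car4, which was called with lungs paired by number, that of Bmx, the other member with an unadjusted p under 0.05, and those of both Tie receptors, Tie1 and Tek, which were not called. Each runs 5′ to 3′ on the gene's strand over the 250 bases before the start, and capitals mark GGAAG or its reverse complement CTTCC, a core that ETS factors such as Erg and Fli1 can bind.
Tbx1 start 1, chr16:18588900-18589149, minus strand: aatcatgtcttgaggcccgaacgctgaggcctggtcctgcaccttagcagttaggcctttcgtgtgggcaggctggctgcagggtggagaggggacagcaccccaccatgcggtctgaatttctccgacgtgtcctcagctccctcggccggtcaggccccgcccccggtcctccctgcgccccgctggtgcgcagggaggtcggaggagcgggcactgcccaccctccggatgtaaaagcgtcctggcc
Tbx1 start 2, chr16:18590672-18590921, minus strand: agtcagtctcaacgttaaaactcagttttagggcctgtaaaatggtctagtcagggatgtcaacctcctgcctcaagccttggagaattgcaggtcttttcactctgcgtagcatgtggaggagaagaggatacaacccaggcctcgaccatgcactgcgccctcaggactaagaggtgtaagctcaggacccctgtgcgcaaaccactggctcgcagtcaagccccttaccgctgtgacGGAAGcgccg
Car4, chr11:84957504-84957753, plus strand: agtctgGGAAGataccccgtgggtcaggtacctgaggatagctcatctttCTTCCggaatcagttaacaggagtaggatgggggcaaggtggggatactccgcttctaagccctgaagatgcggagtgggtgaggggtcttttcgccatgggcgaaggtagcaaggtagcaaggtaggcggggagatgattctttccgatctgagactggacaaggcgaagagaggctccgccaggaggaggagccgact
Bmx, chrX:164258194-164258443, minus strand: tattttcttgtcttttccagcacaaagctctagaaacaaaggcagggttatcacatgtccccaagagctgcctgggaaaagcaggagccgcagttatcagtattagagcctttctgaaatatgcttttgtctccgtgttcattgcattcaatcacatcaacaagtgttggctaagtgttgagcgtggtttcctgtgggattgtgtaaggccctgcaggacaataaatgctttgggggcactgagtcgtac
Tie1, chr4:118489850-118490099, minus strand: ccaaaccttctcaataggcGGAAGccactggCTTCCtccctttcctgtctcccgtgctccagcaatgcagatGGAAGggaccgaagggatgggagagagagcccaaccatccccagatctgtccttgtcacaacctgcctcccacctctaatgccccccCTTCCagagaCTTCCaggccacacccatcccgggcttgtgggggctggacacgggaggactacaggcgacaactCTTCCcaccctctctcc
Tek, chr4:94739039-94739288, plus strand: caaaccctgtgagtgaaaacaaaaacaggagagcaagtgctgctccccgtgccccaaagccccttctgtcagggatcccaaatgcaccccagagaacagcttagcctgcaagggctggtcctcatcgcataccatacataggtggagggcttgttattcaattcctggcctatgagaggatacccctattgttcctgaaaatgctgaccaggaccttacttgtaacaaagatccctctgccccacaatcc
The letters GGAAG or CTTCC occurred 0 times and 1 time before the starts of Tbx1 and 2 times before that of Car4. Before the start of Bmx they occurred 0 times, before that of Tie1 6 times and before that of Tek 0 times. The count thus ran from 0 to 6 among members that were not called. Other forms of an ETS core, such as a shorter one, were not counted. The promoter table held 24 of the 41 genes with 30 starts, and 23 of these windows (76.7%) had the core on either strand, against 64.1% of all 32851 windows. A SOX core, ACAAT on either strand, was in 26.7% of the member windows and 27.7% of all windows. The forkhead motif GTAAACA was in 0 of 30 and in 3.17% of all. A match describes letters in a window and is not a site of binding. Which start a probe set reads was not tested.

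Hdac3 itself, measured first as a check of the labels, was 10.57, 10.54, 10.61, 10.34 and 10.43 in KO lungs 1 to 5, against 10.80, 10.90, 10.80, 10.67 and 10.90 in control lungs 1 to 5. All KO lungs lay below all control lungs, by a log2 change of -0.31 ± 0.07 (SE, limma adjusted p = 0.0203), which is 80.4% of the control level. Leaving out control 2 or control 5 moved the adjusted p to 0.0526 or 0.0545 (limma). No source used here gives the position of its probe set relative to the floxed exons.

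Most endothelial genes differed little between KO and control lungs, and 1 gene of the lymphatic list fell. Of 39 measured members, limma called 1, Tbx1, which fell. Over all genes 559 of 17919 (3.12%) were called, 1.58% lower and 1.54% higher in KO, so the members' share is close to that of the array as a whole. An unadjusted p under 0.05 was reached by 2 members, Tbx1 and Bmx, and by 13.5% of all genes. The log2 change was above 0 for 19 members and below 0 for 20, with a median of -0.00 and a median size of 0.06, and over all genes tested the median was 0.00 and the median size 0.06. With the replicate number as a block, which pairs KO and control lungs of the same number, Car4 was called as well, 2 members against 846 of all genes (4.72%). The labels do not state this pairing, which was read from the values. The KO lung lay on the same side of its paired control in all 5 pairs for 9 of 39 members, higher for Esam, Tie1 and Car4 and lower for Cdh5, Apln, Calcrl, Bmx, Vwf and Tbx1, and for 17.7% of all genes.

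The 95% intervals, each for 1 gene and unadjusted, show how large a change in array signal the measurement leaves room for. For 30 of 39 members the whole 95% interval of the log2 change lay within 0.3 of 0, a fold of 1.23 in either direction, and for 37 it lay within 0.5. Among all genes 79.1% and 94.8% had intervals that narrow. The 9 members with wider or more distant intervals were Sox7, Car4, Apln, Aplnr, Gja5, Bmx, Prox1, Reln and Tbx1. All 5 KO values lay on 1 side of all 5 control values for 2 members, Tbx1 and Bmx, both lower, and for 5.11% of all genes. In whole lung, fewer cells of a type and less RNA per cell cannot be told apart.

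**Figure D1:**
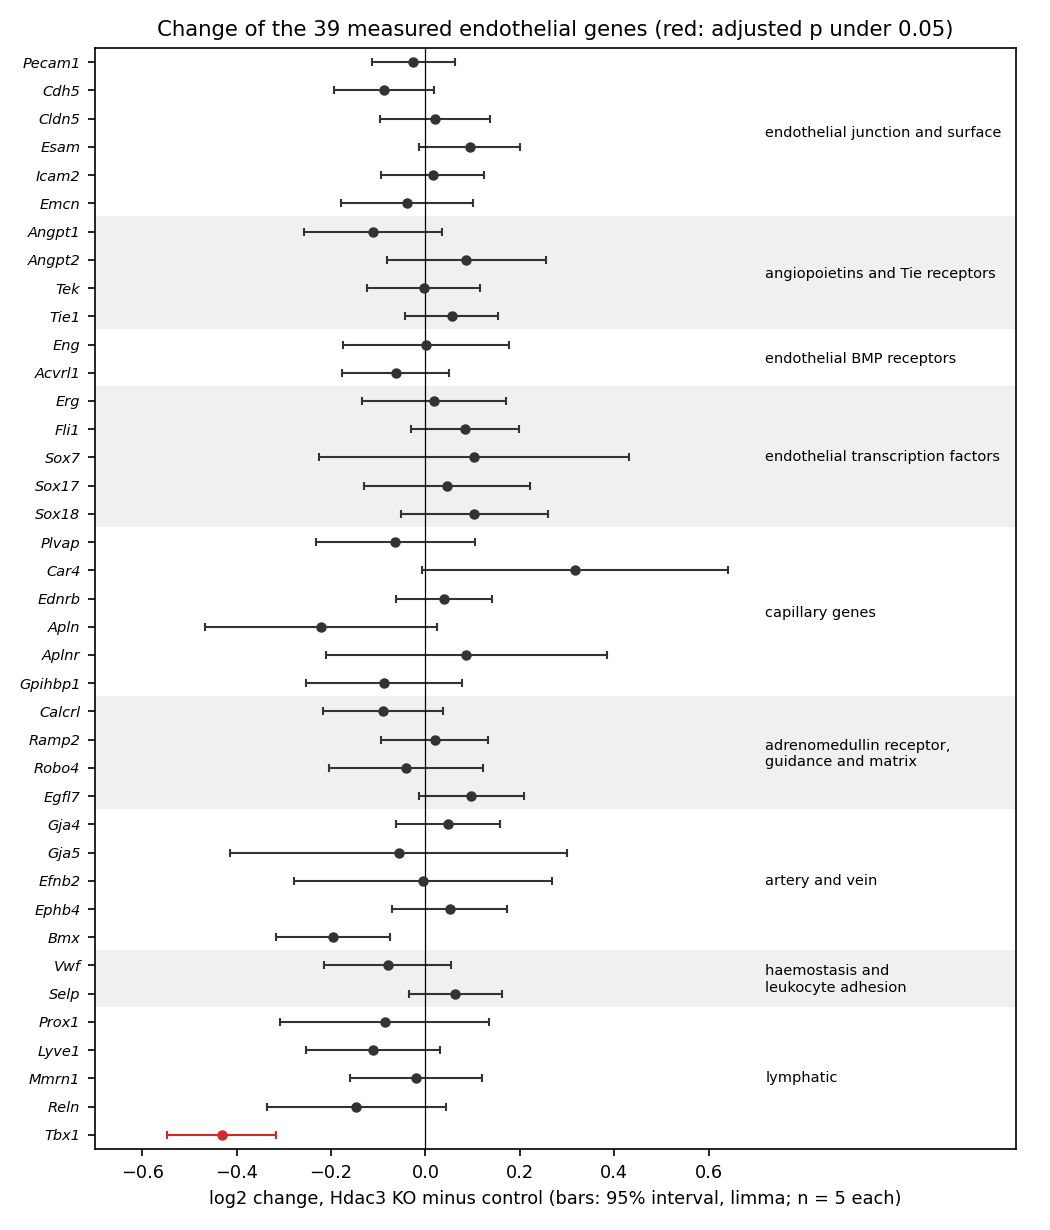
Log2 change of each measured member between 5 KO and 5 control lungs (horizontal axis), with its 95% interval from limma, grouped by role. Tbx1, in red, lies at -0.43 with its interval below 0, Bmx is the other member whose interval leaves out 0, and the widest intervals belong to Gja5, Sox7 and Car4.

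Junction and surface genes, general markers of endothelium, had log2 changes between -0.09 and 0.09. Pecam1, which encodes the adhesion molecule CD31, was 11.21, 11.26, 11.24, 11.20 and 11.19 in KO lungs 1 to 5, against 11.30, 11.21, 11.26, 11.25 and 11.22 in control lungs 1 to 5. The groups overlapped, and the log2 change of -0.03 ± 0.04 (SE) had a 95% interval from -0.11 to 0.06 (adjusted p = 0.869 by limma). Cdh5, VE-cadherin of the endothelial adherens junction, was 12.71, 12.61, 12.64, 12.61 and 12.47 in KO lungs 1 to 5, against 12.73, 12.69, 12.70, 12.68 and 12.68 in control lungs 1 to 5. KO 5 was the lowest lung and KO 1 lay within the control range, and the log2 change of -0.09 ± 0.05 was not called (adjusted p = 0.482, limma). The 95% interval for Cdh5 ran from 87.4% to 101.2% of its control level. Cldn5, the tight junction claudin of endothelium, had a log2 change of 0.02, Icam2, a leukocyte adhesion ligand, 0.02, and Emcn, the sialomucin endomucin of capillaries and veins, -0.04. Esam, an immunoglobulin-like junction protein, had 0.09 (adjusted p = 0.452, limma), and its KO value exceeded the control of the same number in all 5 pairs. The KO value of Cdh5 lay below its paired control in all 5 pairs, by 0.02 to 0.21. Limma called none of the 6 and gave 0 of them an unadjusted p under 0.05. The two-sided exact permutation p, unadjusted, was 0.0397 for Cdh5 and 0.0476 for Esam. How many of all genes lie under 0.05 by the permutation test was not counted, and by limma 13.5% did.

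The angiopoietin system links vessel-supporting cells to endothelium. Angpt1, the agonist ligand made by mesenchymal and perivascular cells, had a log2 change of -0.11 ± 0.07 (SE), and its receptor Tek (Tie2) -0.00 ± 0.06. Angpt2, the context-dependent ligand that endothelium itself releases, was 8.02, 8.02, 8.33, 8.05 and 7.89 in KO lungs 1 to 5, against 8.03, 8.00, 7.87, 8.08 and 7.89 in control lungs 1 to 5. KO 3 was the highest of all 10 lungs for Angpt2, the other KO lungs lay in the control range, and the change of 0.09 ± 0.08 was not called (adjusted p = 0.72, limma). Tie1, the orphan receptor that partners Tek, had 0.06 ± 0.05. The receptors for BMP9 that restrain vessel overgrowth, the type I receptor Acvrl1 (ALK1) and its co-receptor Eng (endoglin), had log2 changes of -0.06 and 0.00. Across these ligands and receptors limma made 0 calls, and 0 genes reached 0.05 before adjustment.

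All 5 measured endothelial transcription factors had log2 changes above 0 in the full comparison, Erg, Sox17 and Sox18 turning below 0 in lungs 4 and 5 alone, Erg also without KO 1, KO 2 or KO 3, and Sox17 also without control 3. Limma made 0 calls among them, and 0 reached 0.05 before adjustment. Erg, the ETS factor that sustains junction genes, was 9.72, 9.71, 9.68, 9.44 and 9.41 in KO lungs 1 to 5, against 9.55, 9.58, 9.50, 9.58 and 9.65 in control lungs 1 to 5. KO 1 to 3 lay above every control and KO 4 and 5 below every control, so that the mean change was 0.02 ± 0.07 (SE). Fli1, a related ETS factor that blood cells also express, had 0.08. The SOXF factors, which act in arterial and lymphatic specification, had 0.10 for Sox7, 0.05 for Sox17 and 0.10 for Sox18. Of the 5, Sox7 varied most between lungs, at 7.82, 7.92, 7.94, 8.27 and 8.41 in KO lungs 1 to 5 and 7.68, 7.80, 7.80, 8.14 and 8.43 in control lungs 1 to 5. Lungs 4 and 5 were the 2 highest in each group, and the 2 groups covered nearly the same range.

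Capillary genes lay on both sides of 0, without a call in the unpaired fit. Car4, the membrane carbonic anhydrase of aerocytes, was 10.50, 10.29, 10.26, 10.62 and 9.81 in KO lungs 1 to 5, against 9.99, 9.98, 10.07, 10.27 and 9.59 in control lungs 1 to 5. The groups overlapped, lung 5 was the lowest of its group in both, and each KO lung exceeded the control of its own number, by 0.19 to 0.51. Its log2 change of 0.32 ± 0.15 (SE, adjusted p = 0.385, limma), or 124.5% of the control level, was called with the replicate block at ± 0.06 (adjusted p = 0.0172, limma). It was 0.22 without control 5 and 0.44 without KO 5, called in neither case.

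Apln, the apelin ligand that aerocytes release, stood on the other side of 0 and was not called. It was 8.51, 8.39, 8.61, 8.77 and 8.72 in KO lungs 1 to 5, against 8.53, 8.58, 9.02, 9.07 and 8.91 in control lungs 1 to 5. The KO lung was the lower of its pair in all 5 pairs, by 0.02 to 0.41, and the groups overlapped (log2 change -0.22 ± 0.11, adjusted p = 0.438, and 0.0867 with the block, limma). Ednrb, the endothelin receptor of aerocytes, had 0.04, so the 3 aerocyte genes of the set did not share a direction. Aplnr, the apelin receptor of general capillary cells, had 0.09, Gpihbp1, which holds lipoprotein lipase on the capillary wall, -0.09, and Plvap, the diaphragm protein of endothelial caveolae, -0.06. Of the adrenomedullin receptor pair, Calcrl had -0.09 and its partner Ramp2 0.02. Robo4, an endothelial guidance receptor, had -0.04, and Egfl7, an endothelial matrix protein, 0.10. Limma called 0 of these 4 genes, and 0 had p below 0.05 unadjusted.

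Among artery and vein genes, Bmx, a kinase of arterial endothelium, came nearest to a call. It was 6.34, 6.42, 6.50, 6.44 and 6.42 in KO lungs 1 to 5, against 6.50, 6.62, 6.55, 6.75 and 6.67 in control lungs 1 to 5. Every KO lung lay below every control lung by a small margin, and the exact permutation p was 0.00794, two-sided, the smallest that 5 against 5 lungs can give. Over all genes it did not pass (log2 change -0.20 ± 0.06 SE, adjusted p = 0.089, and 0.0714 with the block, limma), and its level lay not far above the 20th percentile of all values, 6.30. Gja4 and Gja5, the connexins of arterial gap junctions, had 0.05 and -0.06. Efnb2, the arterial ephrin, had -0.01, and its venous receptor Ephb4 0.05. Vwf, the platelet-binding von Willebrand factor, had -0.08. Selp, P-selectin, had 0.06 from means of 5.63 in KO and 5.57 in control lungs, both under that percentile, so its change is poorly measured.

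**Figure D2:**
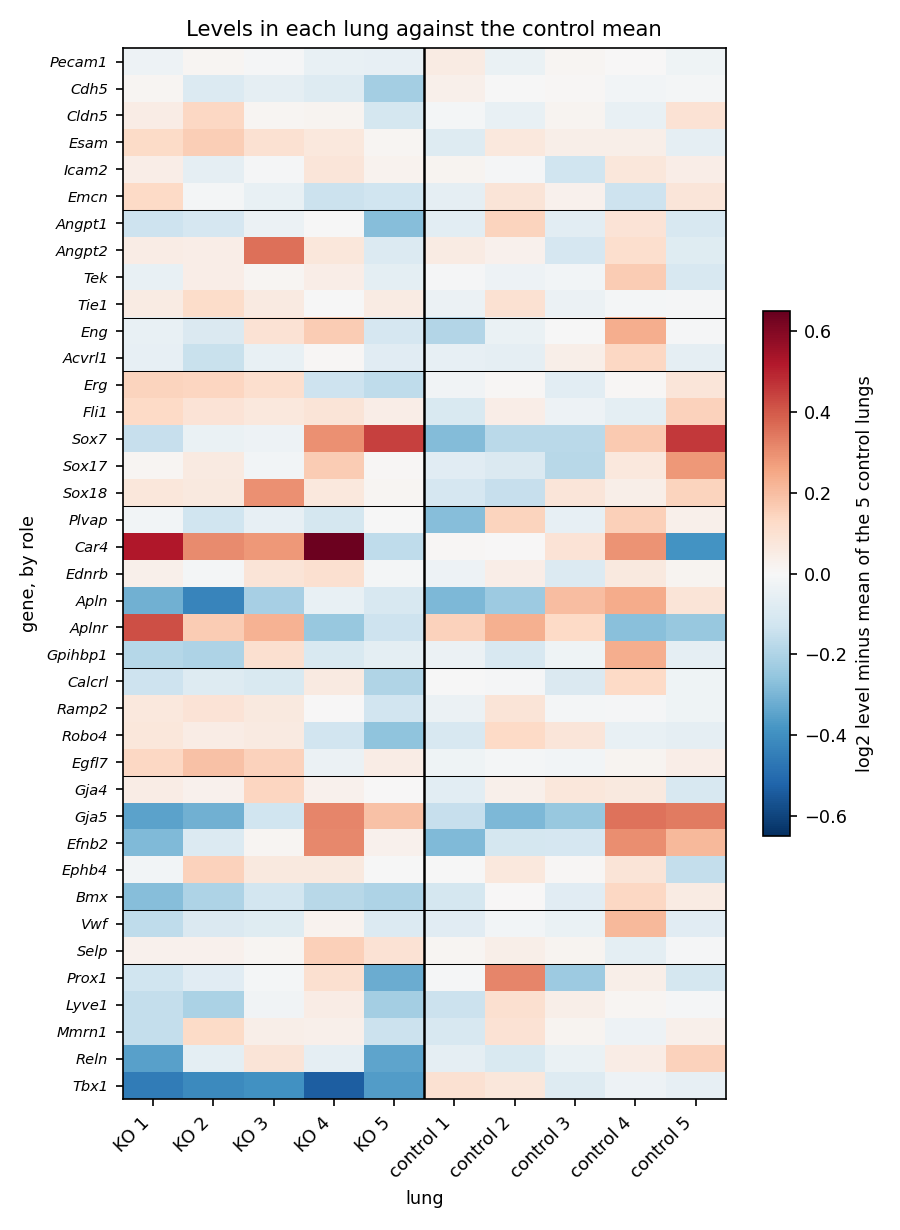
Level of each measured member (rows, by role) in each lung (columns, KO left of control) as the log2 difference from the mean of the 5 control lungs. Tbx1 is low in all 5 KO lungs, and Car4 is high in KO 1 to 4. Sox7 and Gja5 are high in lungs 4 and 5 of both groups. Efnb2 is high in KO 4, control 4 and control 5, and KO 5 lies near the control mean at 0.03.

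For 4 of 39 members, lungs 4 and 5 lay apart from lungs 1 to 3, in the same direction in both groups. These were picked after their values were seen, and the split was not tested. Gja5 was 6.96, 6.99, 7.17, 7.62 and 7.49 in KO lungs 1 to 5, against 7.15, 7.01, 7.06, 7.66 and 7.64 in control lungs 1 to 5. Efnb2 was 9.30, 9.50, 9.60, 9.90 and 9.62 in KO lungs 1 to 5, against 9.30, 9.47, 9.48, 9.89 and 9.80 in control lungs 1 to 5. Like Sox7, both arterial genes were higher in lungs 4 and 5 than in lungs 1 to 3 of the same group, in both groups. Aplnr was 10.64, 10.38, 10.45, 9.98 and 10.09 in KO lungs 1 to 5, against 10.37, 10.45, 10.35, 9.95 and 9.97 in control lungs 1 to 5, and there lungs 4 and 5 were the lowest of each group. The same separation in both groups, in either direction, held for 13.7% of all genes. No label says what a number stands for.

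The lymphatic list held the single call, and a place on that list does not show which lung cells the signal came from. Tbx1, a T-box transcription factor that lymphatic vessel growth requires in mice and that other tissues also use in development, was 8.00, 8.04, 8.06, 7.92 and 8.09 in KO lungs 1 to 5, against 8.55, 8.53, 8.37, 8.42 and 8.40 in control lungs 1 to 5. The KO lungs lay together and all below the lowest control. Its log2 level fell by 0.43 ± 0.05 (SE), which puts it at 74.1% of control with an interval from 68.4% to 80.3% (adjusted p = 0.000577, and 0.00323 with the block, limma). The exact permutation p was 0.00794, two-sided, and the KO lung was lower in all 5 pairs, by 0.31 to 0.55. The log2 change stayed between -0.45 and -0.41 whichever lung was left out. Which cells of the whole lung this fall came from was not tested.

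The genes that define lymphatic endothelium were not called beside it (limma, 0 of the other 4 measured, with 0 below 0.05 before adjustment). Prox1, the master regulator of lymphatic fate, was 6.80, 6.86, 6.92, 7.04 and 6.61 in KO lungs 1 to 5, against 6.92, 7.25, 6.70, 6.97 and 6.82 in control lungs 1 to 5. The groups overlapped, and the change of -0.09 ± 0.10 (SE) had an interval from -0.31 to 0.13. Lyve1, the hyaluronan receptor of lymphatic capillaries and some macrophages, had -0.11 ± 0.07, Reln, a secreted glycoprotein of lymphatic vessels, -0.15 ± 0.09, and Mmrn1, a multimerin shared with platelets, -0.02 ± 0.06. All of these changes lay below 0, that of Mmrn1 turning above 0 with array weights, in lungs 1 to 3 alone, or without KO 1, KO 5 or control 2. The Tbx1 difference is larger than each of theirs, though a difference between genes was not tested. Flt4, the VEGF-C receptor gene that Tbx1 is known to regulate in mouse lymphatic endothelium, was looked at outside the rule and had 0.03 ± 0.06 (adjusted p = 0.915, limma).

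**Figure D3:**
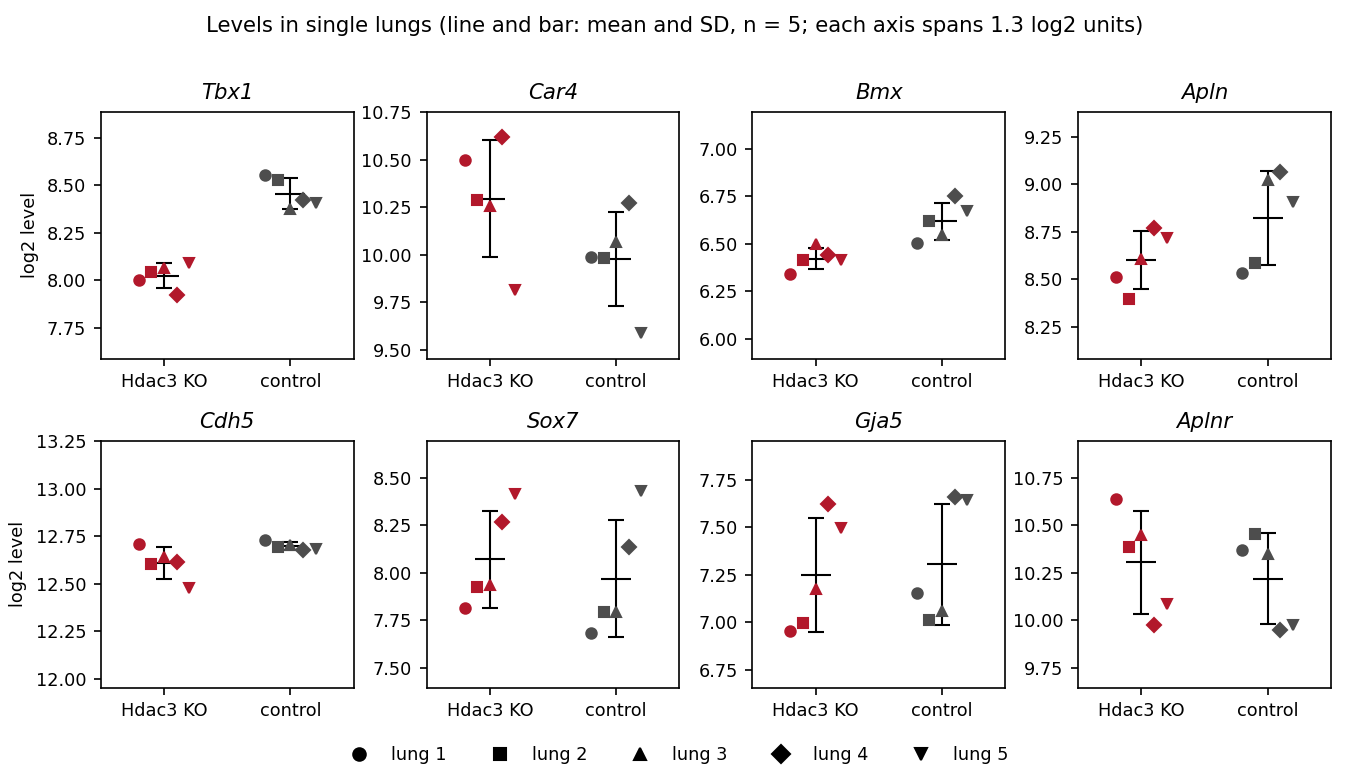
Log2 levels in single lungs, KO left of control, with the mean and SD of each group and 1 symbol per lung number. Tbx1 and Bmx have no overlap between groups, Car4 is higher in KO within each number, Cdh5 overlaps, and Sox7, Gja5 and Aplnr follow the lung number in both groups.

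A wider set of 103 endothelial genes, 96 of them measured, held 2 calls by limma, 1 that rose and 1 that fell, with a median log2 change of -0.01. Over all genes limma called 3.12%, and the share in the wider set was not above that. Both calls were on the list of other lymphatic genes (14 measured). Nrp2, neuropilin-2, a co-receptor for VEGF-C and semaphorins in lymphatic vessels and other cells, was 9.95, 9.92, 9.83, 9.78 and 9.83 in KO lungs 1 to 5, against 10.17, 10.09, 10.10, 10.15 and 10.18 in control lungs 1 to 5. No KO lung reached the control range, and Nrp2 fell by 0.27 ± 0.05 (SE, adjusted p = 0.00663, limma). Cd9, a tetraspanin that epithelium and platelets also express in quantity, averaged 10.85 ± 0.06 in KO and 10.48 ± 0.09 in control lungs (SD, n = 5 each) and rose by 0.37 (adjusted p = 0.0021, limma). In lungs 1 to 3 alone Nrp2 was at -0.22 and had an adjusted p of 0.121 (limma).

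On the remaining wider lists 0 genes were called by limma. Among 24 other pan-endothelial genes 1 had an unadjusted p under 0.05, Arhgap31, a GTPase regulator, with 0.14 (adjusted p = 0.213), followed by Prex2 with -0.12. Among 21 transcription factors 1 did, Nfatc1, which acts in valve formation, with -0.21 (adjusted p = 0.129, and 0.0386 with the block, limma), followed by Foxo1 with -0.10. Of 14 Notch and Eph genes none did, and the smallest p values belonged to the Notch ligands Jag1 (-0.20) and Dll1 (0.11). Jag1 was lower in all 5 pairs, with an adjusted p of 0.0798 with the replicate block and of 0.0406 with lungs 1 to 3 against 4 and 5 as a block (limma). Of 23 capillary and arteriovenous genes none did, led by the fatty acid binding protein Fabp5 (-0.22) and the BMP receptor Bmpr2 (-0.09).

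Markers of other lung cells show what else differed in the same RNA. Of 11 general epithelial markers 5 rose, among them Cldn4 by 1.95 and the keratins Krt18 by 1.34 and Krt8 by 0.74. The others were not called, among them Epcam at 0.04, Esrp1 at -0.02 and Nkx2-1 at -0.04. Of the 11 markers, 9 had changes above 0. Their summed linear level was 17136 to 19527 in KO lungs and 11615 to 12724 in control lungs. Such a sum weighs bright probe sets most, and whether the number of epithelial cells differed was not tested. The alveolar lists held 2 rises each and 1 fall between them. Among 11 AT1 markers, AT1 being the thin cell across which gas passes, 2 rose and 1 fell, with Gprc5a at 0.34 and Pdpn at -0.52. Pdpn, podoplanin, is made by lymphatic endothelium as well as by AT1 cells, so its fall cannot be assigned to either. Of 11 markers of AT2 cells, the surfactant-producing cells, 2 rose, Etv5 by 0.61 and Lpcat1 by 0.34. The list had 6 changes above 0 and 5 below. Among the surfactant genes, Sftpc had -0.02, and Sftpa1 had the lowest change of the list, -0.48, and was not called. Of 7 mesothelial markers 2 rose, Krt19 by 0.67, which is shared with epithelium, and Msln by 0.46. The other 5 lay below 0, down to -0.27 for Aldh1a2, and were not called. The replicate block added the AT1 marker Rtkn2 at 0.40 (adjusted p = 0.327 without and 0.00862 with it, limma), the AT2 marker Cxcl15 at 0.19 (0.0807 and 0.046) and the mesothelial Upk3b at -0.26 (0.102 and 0.0271).

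Among markers of non-epithelial cells other than mesothelium, 1 glial gene was called. Limma called 0 of 12 fibroblast, 9 smooth muscle, 10 pericyte, 12 leukocyte, 8 platelet and 5 erythroid markers. Before adjustment p was below 0.05 for 1 fibroblast, 1 smooth muscle and 5 leukocyte markers and for 0 of the others. With the replicate block limma called 4 of these, each on the same side in all 5 pairs. Cnn1, calponin of smooth muscle, was at -0.41 (adjusted p = 0.123 without the block and 0.0275 with it), the leukocyte genes Ccr2 and Laptm5 at -0.33 and -0.27 (0.0282 and 0.0227 with it), and the erythroid Slc4a1 at 0.22 (0.0461 with it). The 9 smooth muscle markers had a median log2 change of -0.09, and all 9 changes lay below 0. The mean log2 level of the leukocyte markers was 7.52 to 7.62 in KO lungs and 7.66 to 7.74 in control lungs, with no overlap, and their summed linear level was 2803 to 3142 in KO and 3192 to 3444 in control lungs. Leukocytes share Pecam1 and Fli1 with endothelium, and some macrophages share Lyve1, and their part in those values was not tested. Of 7 neuronal and glial markers S100b was called, with means of 5.69 in KO and 5.50 in control lungs, both under the 20th percentile, and the call ended with the replicate block (adjusted p = 0.0825) and whichever lung was left out (0.0516 to 0.121, limma). The part of any of these cells in the falls of Tbx1 and Nrp2 was not tested.

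**Figure D4:**
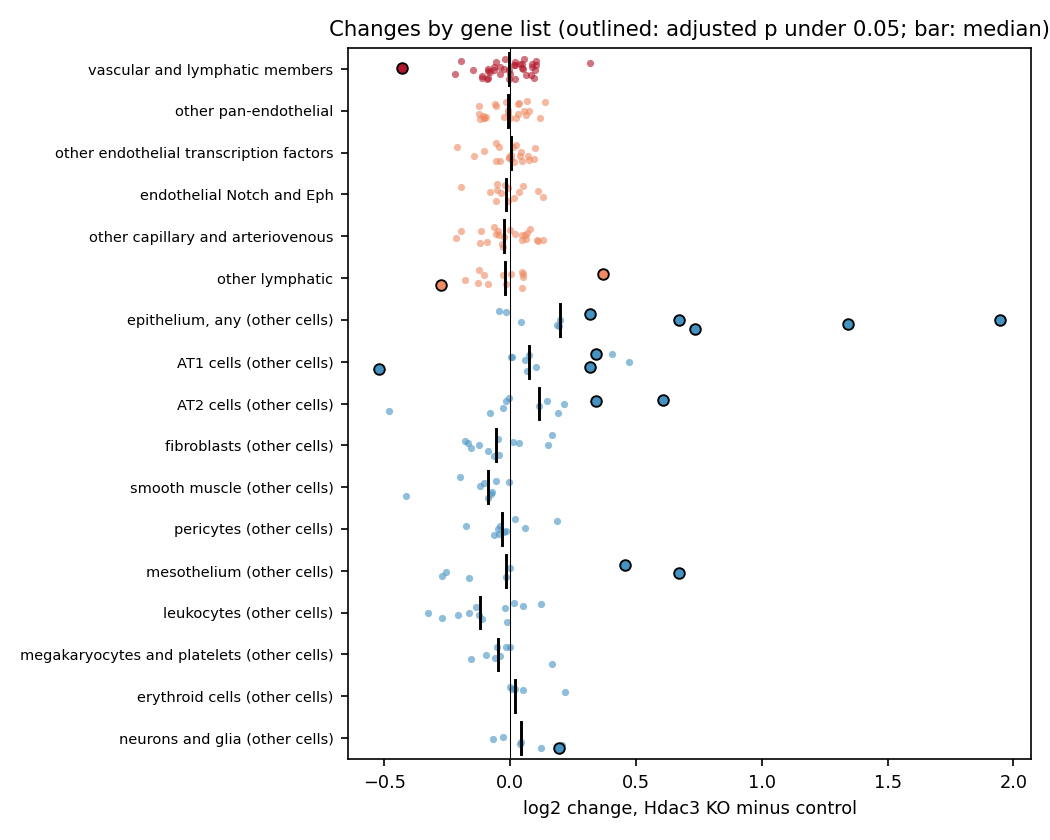
Log2 change between KO and control lungs for each measured gene of the members, of the wider endothelial lists and of the marker lists for other lung cells, with the median of each list as a bar and called genes outlined. The endothelial lists run from -0.43 to 0.37. Their 3 outlined genes are on the lymphatic lists, Tbx1 and Nrp2 below 0 and Cd9 above 0. The epithelial markers reach 1.95.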

How the data were processed

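Whole lungs were profiled on 10 Affymetrix arrays, 1 per lung, from 100 ng of poly(T)-primed, amplified RNA per the labels' protocols. The authors deposited 1 table of log2 levels per probe set. The submitters' processing notes name oligo, RMA and limma, without versions, and no source used here names a genome build or a filter on rows. The table had 24888 probe sets, from 3.53 to 13.61, with sample medians from 7.43 to 7.46 and correlations between lungs of 0.984 to 0.995. In the platform annotation 18922 probe sets had 1 symbol, 1343 had several and 4623 had none. Members were matched by symbol.

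KO and control were compared over 17919 genes with limma 3.58.1 (R 4.3.3; lmFit and eBayes, two-sided), with Benjamini-Hochberg adjustment and a threshold of 0.05. The script was tested on simulated data. Precision is set by the number of lungs: the median SE of a log2 change was 0.066. Exact permutation tests, two-sided, used every assignment of 5 KO and 5 control lungs. Same-numbered lungs deviated together from their group means (correlations 0.154 to 0.485, against a median of -0.083 and a highest of 0.330 between different numbers), and 7 of 10 lungs matched their own number best. Every such correlation was over 0.1, and on that ground the numbers were taken to pair the lungs in an alternative fit. This replicate block is given where it changes the call of a listed gene. The correlations for numbers 1, 2 and 3 (0.319, 0.154 and 0.183) were no higher than the highest between different numbers. Whether the difference of lungs 4 and 5 from lungs 1 to 3 gives these correlations was not tested. The pairing comes from the data, not the labels, so calls made only with the block rest on values used to choose it.

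The members, lists and alternatives were chosen with earlier results of these data known. Every lung's value is given for members called with or without the block, for those with an unadjusted p under 0.05, and for Pecam1, Cdh5, Erg, Prox1 and Angpt2; Apln, Sox7, Gja5, Efnb2 and Aplnr were added after their values were seen. From each wider list the called genes, or the 2 with the smallest p, are named, and from each marker list up to 2 called genes; markers whose call the block changes were added after their values were seen. Alternatives changed the probe set rule, normalization, filter, floor, variance prior, array weights, blocks and lungs.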

Additional observations from a re-analysis of the deposited data

Results flagged for a closer look

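In each group of 5 lungs, the highest and lowest value of each member was set against the others by Dixon's test at the 95% level. This flagged 5 of 78 groups, and chance flags about 3.9. In all of them 1 lung stood above the rest. Sox18 was 8.67 in KO 3, with the other KO lungs from 8.39 to 8.45. Tie1 was 9.88 in control 2, with the other control lungs from 9.74 to 9.77. Ramp2 was 9.46 in control 2, the others lying from 9.33 to 9.36. Control 4 was high for Gpihbp1, at 9.19 against 8.85 to 8.92 in the other control lungs, and for Vwf, at 9.35 against 9.07 to 9.12. None of the 5 genes was called in the comparison of KO and control.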

How the results depend on the processing

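Of 930 log2 changes of members under 24 alternatives, 927 kept their side of the threshold, and 47 changed sign, all in 16 members whose change was at most 0.10 and was not called. Tbx1 was called in 23 of 24, from -0.45 to -0.41, and not in lungs 4 and 5 alone (-0.41, adjusted p = 0.330), which leave 2 lungs per group. The replicate block gave 2 members called (Tbx1 and Car4) and 846 genes over the array, and changed no other call of a member. Outside the members it added Nfatc1, Rtkn2, Cxcl15, Cnn1, Upk3b, Ccr2, Laptm5 and Slc4a1 and ended S100b, for 18 markers called against 12 without it. Lungs 1 to 3 against 4 and 5 as a block gave 2 members (Tbx1, and Bmx at adjusted p = 0.0459), 4 other endothelial genes (Nrp2, Cd9, Nfatc1 and Jag1), 19 markers of other cells and 910 genes. Lungs 4 and 5 alone gave 0 members, 0 other endothelial genes and 0 markers by limma and 2 genes in all. At an unadjusted limma p under 0.05 these lungs gave 4 of 39 members, 7 of 96 other endothelial genes and 19 of 102 markers. Over all genes 1460 of 17919 lay under it. Lungs 1 to 3 alone gave 1 other endothelial gene. Hdac3 was -0.26 in lungs 1 to 3 (adjusted p = 0.0629) and -0.40 in lungs 4 and 5 (0.421), and from -0.35 to -0.28 with 1 lung left out. Members without overlap between groups numbered 1 with median centring and 1 among genes above the median level, 10 of 39 in lungs 1 to 3 (19.7% of all genes) and 14 of 39 in lungs 4 and 5 (38.9% of all genes), and 2 to 4 with 1 lung left out, 4 being without KO 4 (6.67% of all genes). With 1 lung left out, 1 member was called each time and the count over all genes ran from 393 to 699. The mean change of Vwf and Selp became -0.080 under both filters on dim genes, which drop Selp. In lungs 4 and 5 alone the mean change was -0.051 for junction genes, -0.051 for transcription factors and -0.082 for Calcrl, Ramp2, Robo4 and Egfl7; the cause was not tested. Selp, Bmx and Prox1 lay near or under the 20th percentile of values, where signal over background limits the size of a change.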

Other observations

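Ccl21a, the chemokine by which lymphatic vessels attract dendritic cells, shares 9 probe sets with 7 other symbols, near-identical copies among them, and these hold 5 distinct sets of values. In a fit over all 24888 probe sets, added after seeing the data, their log2 changes ran from 0.01 to 0.03 and limma made 0 calls (0 below 0.05 before adjustment). These values belong to the 8 symbols together and not to Ccl21a alone.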
